A study of Mus musculus with 20 samples.

Results

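The genes described here are 33 markers of the enteric nervous system, the network of neurons and glia in the gut wall. They comprise 30 neuron genes and 3 glial genes, listed by gene name, and they were measured in whole small intestine and colon of mice with and without the gene Spdef. All 33 had at least 1 probe on the array, 64 probes in all, and the brightest probe that passed the filter on dim probes stood for its gene. The filter left 27 of the 33 (25 of neurons and 2 of glia) among the 17084 genes tested, of 27573 on the array.

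Enteric neurons and glia descend from neural crest cells that migrate into the gut before birth and settle in plexuses between the muscle layers and beneath the mucosa. Their migration and survival depend on the growth factor GDNF, which signals through the receptor Ret and its GFRA co-receptors. Mature neurons relax or contract the muscle and drive secretion with transmitters such as nitric oxide, acetylcholine and vasoactive intestinal peptide, and glia marked by Sox10, S100b and Gfap surround them. Spdef encodes an ETS family transcription factor known from secretory cells of the gut epithelium, and the series asked what its loss does to goblet and Paneth cells.

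Each of the 20 two-colour Agilent arrays set a pool of Spdef knockout (KO) RNA against a pool of wild type RNA. Each pool held total RNA of 2 to 3 littermates from whole small intestine or whole colon, taken at postnatal day 30 (adult) or on E18.5 of gestation (fetal). Adult small intestine had 2 pairs of pools, adult colon 3, fetal small intestine 3 and fetal colon 2, and every pair was hybridised in both dye orders. The mouse strain, the sex and the way the Spdef allele was made are not given in the sources used here. Because whole organs were used, neurons and glia were a small part of each sample, next to muscle, connective tissue and epithelium.

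As a check of the labels, log2 KO over wild type of Spdef itself lay between -1.45 and -3.96 per pair and was below 0 on each of the 20 arrays. Several libraries stood apart. The pool pair labelled fetal small intestine 3 carried colon markers and the pair labelled fetal colon 1 carried small intestine markers: wild type log2 intensity of the lactase gene Lct was 16.0, 16.1 and 8.76 in the pools labelled fetal small intestine 1, 2 and 3 and 16.4 and 9.10 in those labelled fetal colon 1 and 2, while Hoxb13 was at 7.04, 7.06, 11.6, 7.0 and 11.2 in the same order. Both pairs were hybridised to the same slide, and groups were kept as labelled. The pairs labelled fetal small intestine 1 and 2 differed by less than the noise between arrays (variance ratio 0.538, against 1.27 to 5.76 for other pairs of a group) and were counted as 1 replicate, which left 9. On the adult colon pair 1 array with KO in Cy5, 14% of the probes that were bright on its dye swap (mean signal above 400) were not well above background in either channel, against 0% to 0.109% on the other arrays. 6 of the tested neuron and glia genes, Nos1, S100b, Ncam1, Nefl, Hand2 and Syp, were well above background in neither channel of that array and in both channels of its dye swap.

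In adult colon, 10 of the 27 genes were lower in KO and none was higher, at 5.67% of all genes tested called lower and 9.59% called in either direction (limma, adjusted p below 0.05). They comprised 9 neuron genes and the glial gene S100b, with folds between 1.16 (Stmn3) and 1.35 (Nos1). The value lay below 0 for 25 of the 27 genes, with a median log2 KO over wild type of -0.15 against -0.0025 over all genes. In RNA of whole organs, fewer cells of a type and less RNA per cell cannot be told apart. The test of 2 to 3 pools a group used the pooled spread of all groups, and the errors below are limma standard errors over 3 pairs.

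**Figure D1:**
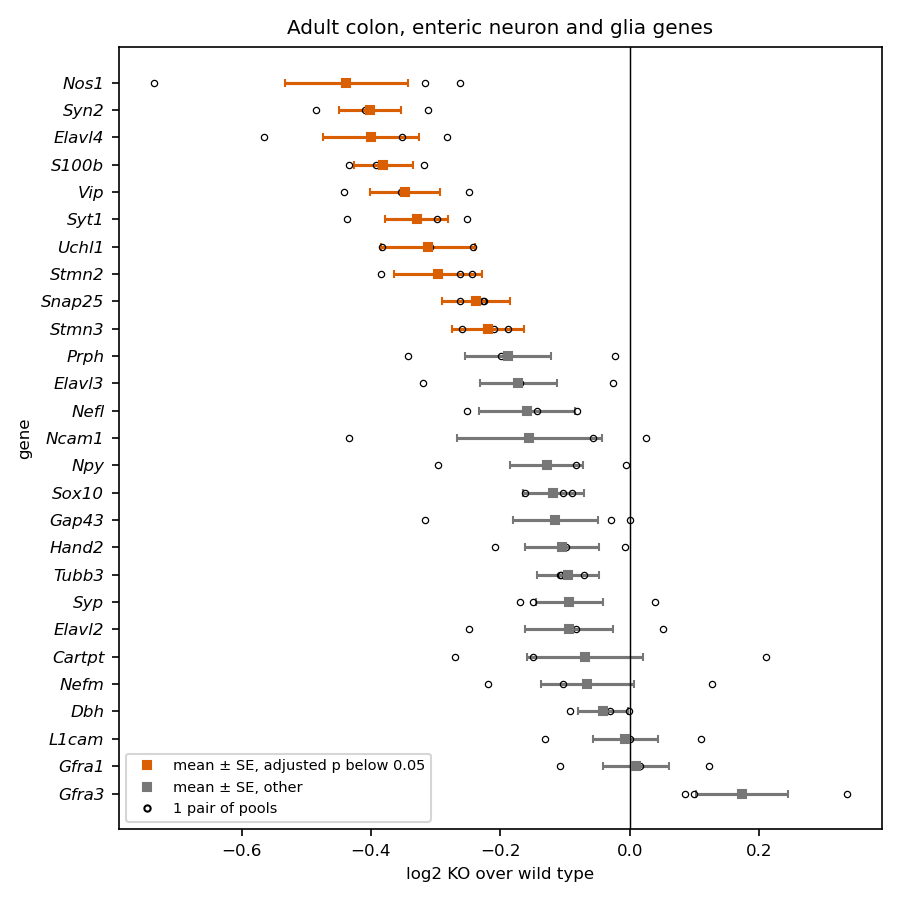
Log2 KO over wild type (horizontal axis) of the 27 tested genes in adult colon, sorted by value. Squares with bars are means ± SE, orange where the adjusted p was below 0.05, and open circles are the 3 pairs of pools. All 10 orange genes have their 3 circles below 0, and Gfra3 at the bottom has its 3 circles above 0.

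Genes of the synaptic vesicle were the group with the lowest median, -0.28 over 4 genes, 3 of which fell. Syn2 encodes synapsin, which tethers vesicles in the nerve terminal, and its log2 KO over wild type was -0.31, -0.49 and -0.41 in pairs 1, 2 and 3. The 3 values lay close together, and the mean of -0.40 ± 0.047 had an adjusted p of 0.00405. For Syt1, the calcium sensor of vesicle release, the pairs gave -0.25, -0.44 and -0.30, with a mean of -0.33 ± 0.049 (adjusted p = 0.00879). Snap25, a SNARE protein of vesicle fusion, stood at -0.26, -0.23 and -0.23, the narrowest spread of the 10 genes that fell, and its mean was -0.24 ± 0.053 (adjusted p = 0.0318). The dimmer second probes of Syt1 and Snap25 gave -0.18 and -0.15, on the same side of 0 and smaller. Syp, the vesicle membrane protein synaptophysin, did not pass the test and had pairs on both sides of 0, at 0.04, -0.15 and -0.17.

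Among transmitter enzymes and peptides, Nos1 and Vip fell, both markers of inhibitory motor neurons that relax the gut muscle. Nos1, the neuronal nitric oxide synthase, had the widest spread of the 10 genes that fell, with -0.26, -0.74 and -0.32 in the 3 pairs. Pair 2 was lowest, and the mean of -0.44 ± 0.095 gave an adjusted p of 0.0301. On the 2 arrays of pair 1, Nos1 stood at -0.09 on the array with missing signal and at -0.43 on its dye swap. Vip, the precursor of vasoactive intestinal peptide, was at -0.44, -0.35 and -0.25, with a mean of -0.35 ± 0.054 (adjusted p = 0.0104). Npy (-0.13), Cartpt (-0.07) and Dbh (-0.04), the genes of 2 other neuropeptides and of the noradrenaline-making enzyme, did not pass the test, and for Cartpt pair 3 lay at 0.21 on the other side of 0.

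The promoters of Vip and Elavl4, both lower in adult colon, are shown because they hold the core of the cyclic AMP response element, the motif TGACGT searched on both strands, for which the Vip promoter is a textbook case. The lines give the 120 bases before each start site from RefSeq (GRCm38.p6), 5′ to 3′ on the strand of the gene, Vip at chr10:5639098-5639217 on the plus strand and Elavl4 at chr4:110351912-110352031 on the minus strand, with the motif or its reverse complement in capitals.
Vip: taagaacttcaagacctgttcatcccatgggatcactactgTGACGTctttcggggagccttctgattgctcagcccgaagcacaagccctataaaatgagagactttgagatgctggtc
Elavl4: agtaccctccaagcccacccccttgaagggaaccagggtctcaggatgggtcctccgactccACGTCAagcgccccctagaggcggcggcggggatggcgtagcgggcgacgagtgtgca
In the window from 250 bases before to 50 bases after the start, 2263 of 27025 genes held the motif (8.37%), as did 4 of the 22 neuron and glia genes that the table lists, and 2 of the 8 listed genes that fell in adult colon. Among the 4 with the motif, Cartpt (-0.07 in adult colon) did not pass the test and Th was not tested. A match describes the letters only.

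The RNA-binding Hu proteins are pan-neuronal markers, and of their genes Elavl4 (HuD) fell. Its pairs stood at -0.35, -0.56 and -0.28, and the mean was -0.40 ± 0.074 (adjusted p = 0.0185). Elavl3 (-0.17, adjusted p = 0.107) and Elavl2 (-0.09, adjusted p = 0.418) did not pass, nor did Hand2 (-0.10), a transcription factor of developing enteric neurons. The second kept Hand2 probe averaged 0.002. Both kept Elavl4 probes were below 0, the brighter at -0.40 and the dimmer at -0.03, so that the size rests on the brighter one.

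All 8 cytoskeletal and axonal genes were below 0, with a median of -0.17, and 3 of them fell. Uchl1, the ubiquitin hydrolase PGP9.5 used to stain all enteric neurons, stood at -0.31, -0.38 and -0.24, with a mean of -0.31 ± 0.073 (adjusted p = 0.037), while its second kept probe averaged -0.10. The stathmins Stmn2 (-0.26, -0.38 and -0.24) and Stmn3 (-0.19, -0.26 and -0.21), which regulate microtubules in growing axons, had adjusted p-values of 0.0347 and 0.0459. Peripherin (Prph, -0.19), the neurofilaments Nefl (-0.16) and Nefm (-0.07), the growth cone protein Gap43 (-0.12) and neuronal tubulin Tubb3 (-0.10) did not pass. The adhesion molecules Ncam1 (-0.15) and L1cam (-0.01) had pairs on both sides of 0.

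Of the glial genes, S100b, a calcium-binding protein of mature glia, fell and Sox10, the transcription factor of the glial lineage, did not pass. S100b stood at -0.32, -0.43 and -0.39, with a mean of -0.38 ± 0.046 (adjusted p = 0.00428). In pair 1 it was at -0.01 on the array with missing signal and at -0.63 on the dye swap, and without that array its mean was -0.48 ± 0.058 (adjusted p = 0.00304). Sox10 stood at -0.10, -0.09 and -0.16, with a mean of -0.12 ± 0.047 and an adjusted p of 0.149. As medians per pair, the 25 neuron genes were at -0.11, -0.23 and -0.21 and the 2 glial genes at -0.21, -0.26 and -0.28, so that both sets were below 0 in every adult colon pair.

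Other genes of these cells, on lists that do not share members with the 33, were read in the same fit. Of 37 tested further neuron genes, 8 fell and 1 rose, with 28 below 0 and a median of -0.08. They included Cntn1, an axonal adhesion molecule (-0.30 ± 0.047, adjusted p = 0.011), Mapt, which encodes tau (-0.49 ± 0.080, adjusted p = 0.0124), and Mapk10, the neuronal JNK3 kinase (-0.23 ± 0.040, adjusted p = 0.0146). The one that rose was the tubulin gene Tubb4a (0.50 ± 0.065, adjusted p = 0.00565). Of 12 further glial genes, 3 fell and 1 rose. Those that fell included Nrn1 (-0.45 ± 0.11) and Ngfr (-0.28 ± 0.069), and Pmp22 was higher (0.44 ± 0.10).

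Genes of the tissues around the neurons moved in the same pools. Of 19 smooth muscle genes, 18 were below 0 with a median of -0.32, and 2 fell, Cald1 (-0.35 ± 0.084) and Pgm5 (-0.35 ± 0.085). All 10 fibroblast genes were below 0, with a median of -0.23, and Postn fell (-0.57 ± 0.11). All 14 epithelial genes were above 0, with a median of 0.08, and the keratins Krt8 (0.29 ± 0.049) and Krt19 (0.30 ± 0.061) rose. The log2 of the summed intensity of the smooth muscle list was 19.08 to 19.17 in wild type and 18.52 to 19.0 in KO adult colon, that of the fibroblast list 16.9 to 17.3 and 16.7 to 16.9, and that of the epithelial list 19.8 to 19.9 and 19.8 to 20.0. Wild type log2 intensity in adult colon was 15.8 to 16.2 for the smooth muscle actin gene Acta2 and 15.0 to 16.1 for the epithelial adhesion gene Epcam. The median of the pancreatic enzyme genes was -2.50, -0.03 and -2.95 in pairs 1, 2 and 3. The part of these tissues in the neuron and glia values was not tested.

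**Figure D2:**
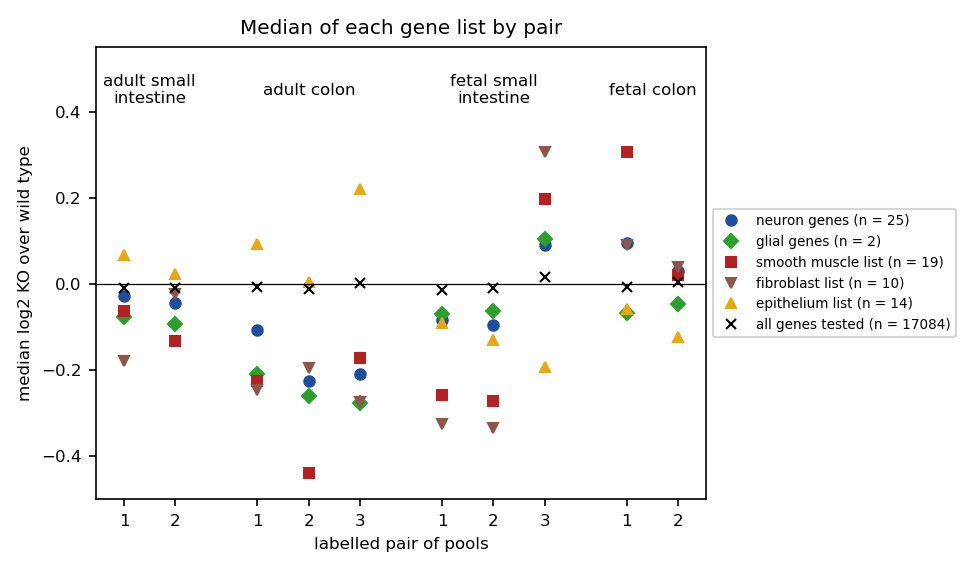
Median log2 KO over wild type of 5 gene lists and of all genes tested (vertical axis) for each of the 10 labelled pairs of pools (horizontal axis). In adult colon the neuron, glial, smooth muscle and fibroblast medians lie below 0 and the epithelial median at or above 0 in all 3 pairs, and in fetal small intestine the neuron and smooth muscle medians lie below 0 in pairs 1 and 2 and above 0 in pair 3.

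The fits below are given without the share of all genes called in each. Changes in their counts cannot be read as particular to the neuron and glia genes. The number of genes called in adult colon depended on the set of pools. It was 3 without adult colon pair 1, 4 without pair 2, 5 without pair 3, and 5 without either fetal colon pair, and it was 0 with arrays centred on their median in place of loess, where 25 of 27 genes remained below 0. It was 9 without the array with missing signal, 11 when the dye bias of each probe was also taken out of the remaining array of that pair, and 8 without that array and the conflicting fetal pools.

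In adult small intestine, none of the 27 genes passed the test (0.398% of all genes did). An unadjusted p below 0.05 was found for 2 of the 27, against 2066 of all 17084 genes. Values leaned below 0 for 19 genes, with a median of -0.06. Vip was lowest, at -0.40 and -0.25 in the 2 pairs, and its mean of -0.33 ± 0.066 had an adjusted p of 0.109. Elavl4 stood at -0.28 and -0.18 and Nos1 at -0.17 and -0.29, so that the 3 genes were below 0 in both pairs. S100b was at -0.15 and -0.10 and Sox10 at -0.01 and -0.09. The smooth muscle list lay at -0.06 and -0.13 and the epithelial list at 0.07 and 0.02 as medians of the same pairs.

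No gene of the set was called in fetal small intestine (0.439% of all genes called) or in fetal colon (0.287%). At an unadjusted p below 0.05 stood 2 of 27 in fetal small intestine, against 1290 of all 17084 genes. In fetal colon 3 of 27 did, against 1112 of all genes. The pairs of these groups did not point one way. Of the 27 genes, 23 and 22 were below 0 in the pairs labelled fetal small intestine 1 and 2, against 6 in pair 3, and 4 and 12 in the pairs labelled fetal colon 1 and 2. Uchl1, for example, stood at -0.17, -0.23 and 0.21 in fetal small intestine and at 0.24 and 0.13 in fetal colon. Without the 2 conflicting pools, no gene was called either, 22 of the 27 were below 0 in fetal small intestine (median -0.08, against 11 of 27 and 0.01 with them) and 12 in fetal colon (median 0.01, against 5 and 0.06 with them). The smooth muscle median followed the same signs in these pairs, at -0.26, -0.27, 0.20, 0.31 and 0.02, and its part in the neuron values was not tested.

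**Figure D3:**
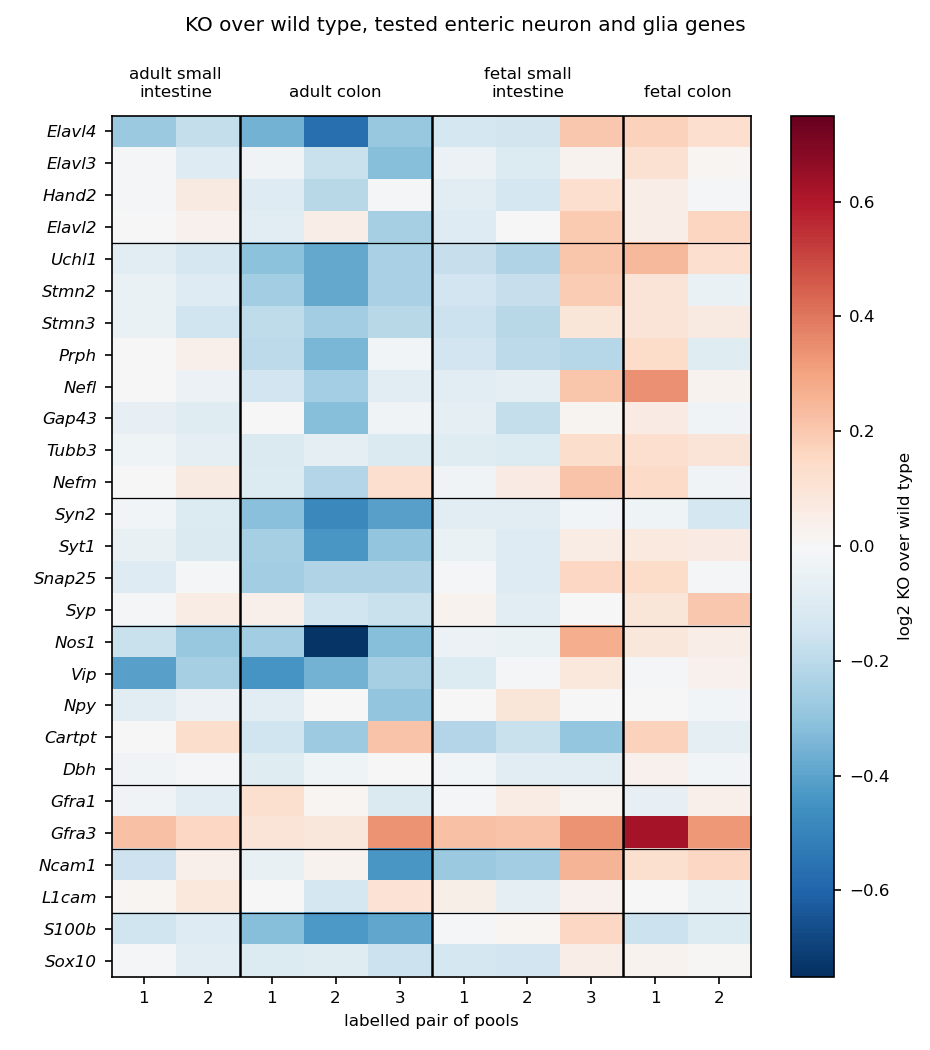
Log2 KO over wild type (colour, blue lower and red higher in KO) of the 27 tested genes (rows, grouped by role from RNA-binding and transcription factors at the top to glia at the bottom) in the 10 labelled pairs of pools (columns). The 3 adult colon columns are mostly blue, and the Gfra3 row is red in all 10 columns, from 0.09 to 0.62.

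On average over the 4 groups, 4 of the 27 genes were called (1.78% of all genes were), and Gfra3 was the 1 that was higher in KO. It encodes the GFRA3 co-receptor, which binds artemin, a relative of GDNF. Its log2 KO over wild type was 0.22 and 0.16 in adult small intestine, 0.10, 0.09 and 0.34 in adult colon, 0.22, 0.21 and 0.34 in fetal small intestine and 0.62 and 0.32 in fetal colon. Every pair lay above 0, as did 19 of the 20 arrays. The exception, at -0.15, was the adult colon array with missing signal, where Gfra3 was well above background in both channels. In every pair the array with KO in Cy3 gave the higher value (0.11 to 0.86, against -0.15 to 0.39 with KO in Cy5). The mean of 0.28 ± 0.042 over the groups had an adjusted p of 0.0174, at 0.533% of all genes called higher. No single group passed the test for Gfra3 (adjusted p between 0.119 and 0.445).

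Gfra1, the co-receptor of GDNF itself, gave -0.01 ± 0.030 over the groups, with pairs on both sides of 0. In the same average, Syn2 (-0.15 ± 0.028, adjusted p = 0.0417), Vip (-0.16 ± 0.032, adjusted p = 0.0474) and S100b (-0.14 ± 0.027, adjusted p = 0.0475) fell, at 1.25% of all genes called lower. Syn2 was below 0 in all 10 pairs, Vip and S100b in 8 each. The number called was 0 without the 2 conflicting fetal pools, with median centring, and without either adult small intestine pair, the pair labelled fetal small intestine 3 or the pair labelled fetal colon 1. It was 2 without adult colon pair 3 and 1 without adult colon pair 1 or 2, fetal colon pair 2 or the merged fetal small intestine pairs, and Gfra3 remained called in each of these 5 fits. The shares of all genes called in these fits are not given here. Enteroendocrine cells share secretory and peptide genes with neurons, and 23 of 25 genes of that list were above 0 in the average, with 3 called higher, Pyy (0.59 ± 0.031), Gcg (0.48 ± 0.057) and Ghrl (0.72 ± 0.10).

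The KO effect differed between stages for Vip. Its mean was -0.33 in adult small intestine and -0.35 in adult colon, against 0.01 in both fetal groups, and the difference of adult minus fetal was -0.35 ± 0.063 (adjusted p = 0.0489, at 0.556% of all genes called lower and 1.08% in either direction). The fetal pairs stood at -0.10, -0.01 and 0.08 in small intestine and -0.02 and 0.03 in colon, and the highest adult pair at -0.25. The call was lost without the conflicting fetal pools (adjusted p = 0.315), without the array with missing signal (0.0622) and in 8 of the 9 fits that left out 1 replicate, the exception being adult colon pair 3, and adjusted p ranged from 0.0207 to 0.999 over all alternatives. No other gene of the 27 passed for this difference, and none passed for small intestine minus colon (0.17% of all genes called in either direction). In the latter, 2 of 27 had an unadjusted p below 0.05, against 1418 of all 17084 genes. S100b was nearest there (0.24 ± 0.054, adjusted p = 0.247).

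The 6 genes that the filter left out had a signal well above background in 0 to 13 of 40 channels. Ret, the GDNF receptor, was well above background in 5 channels, Gfra2, the neurturin co-receptor, in 4, the tyrosine hydroxylase gene Th in 4, the nicotinic receptor subunit gene Chrna3 in 13, the sodium channel gene Scn3a in 0 and the glial filament gene Gfap in 2. None had that signal on every array of a group in 1 genotype, so none was tested, and the glial values rest on S100b and Sox10. Of the tested genes, Npy was well above background in 0 of 4 wild type fetal colon channels, and Nefm and Gfra1 in 1 of 4 each of adult small intestine. There Elavl2 and Gap43 had that signal in 2 of 4 wild type channels each. In its KO channels Elavl2, Elavl3 and Gap43 had it in 1 of 4 each and Nefl in 2 of 4. In KO fetal small intestine L1cam had it in 1 of 6 channels and Dbh in 2 of 6.

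Wild type levels were compared as log2 intensity between arrays, which sets no gene against another. With the pools as labelled, S100b was lower in adult than in fetal small intestine (-1.80 ± 0.36, adjusted p = 0.0268, at 3.81% of all genes called lower) and lower in adult than in fetal colon (-1.55 ± 0.33, adjusted p = 0.0315, at 3.13%). In adult colon pair 1, wild type S100b stood at 7.42 on the array with missing signal and at 10.1 on its dye swap. Both arrays entered the colon comparison, so the first lowered its adult side. No other gene passed in either comparison (8.93% and 9.13% of all genes called in either direction). None passed between adult small intestine and adult colon (3.13%) or between fetal small intestine and fetal colon (0.00585%). An unadjusted p below 0.05 was found for 1 and 0 of the 27 genes, against 3132 and 99 of all 17084.

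Without the 2 conflicting pools but with all arrays of the others, 0 genes were called from fetal to adult small intestine (6.44% of all genes), 13 from fetal to adult colon (10.2%), 1 between the adult tissues (9.07%) and 6 between the fetal tissues (3.04%).

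The pools behind these comparisons fell apart by their regional markers and not by their labels. Elavl4 stood at 9.65, 9.66 and 12.2 in the pools labelled fetal small intestine 1, 2 and 3 and at 9.70 and 12.2 in those labelled fetal colon 1 and 2. The 2 pools with colon markers were thus the 2 high ones. Uchl1 gave 11.2, 11.2 and 14.0, then 11.6 and 14.5, and Nefl 8.73, 8.60 and 11.2, then 8.52 and 11.0. Sox10 followed the neurons, at 8.22, 8.20 and 9.33, then 8.32 and 9.43. S100b did not, at 11.2, 11.1 and 10.6, then 11.0 and 10.8, with the pools that carried colon markers slightly lower than the others. In the KO channel of the same arrays, which held RNA of other mice, Elavl4 was at 9.52, 9.52, 12.4, 9.87 and 12.3 in the same order.

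**Figure D4:**
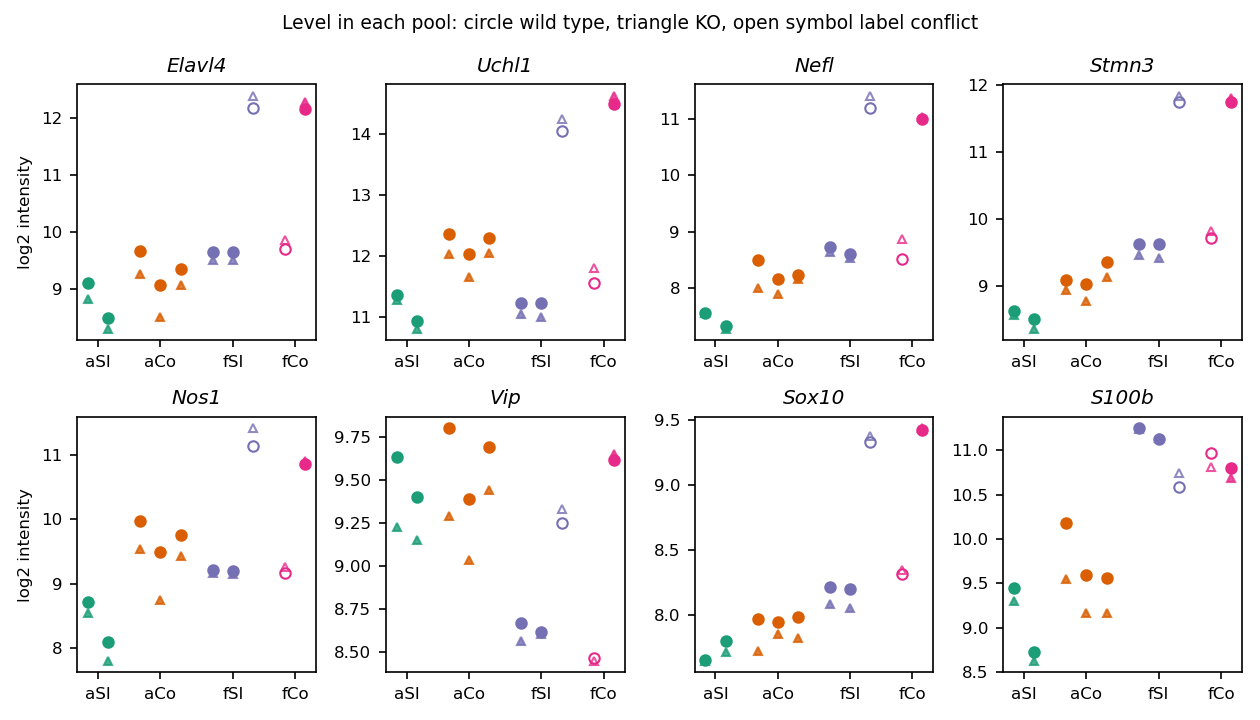
Log2 intensity (vertical axis) of 8 genes in each wild type pool (circles) and KO pool (triangles) of adult small intestine (aSI), adult colon (aCo), fetal small intestine (fSI) and fetal colon (fCo), pools 1 to 3 from left to right, without the adult colon array with missing signal. Open symbols are the 2 fetal pools whose regional markers go against their label, and for the neuron genes and Sox10 fSI pool 3 lies with fCo pool 2 and fCo pool 1 with fSI pools 1 and 2.

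Without the 2 conflicting pools and the array with missing signal, each fetal tissue was a single replicate, assumed to vary like the adult pools, so the following tests are weak on the fetal side. Fetal small intestine then lay below fetal colon for 26 of 27 genes, with a median of -1.22 against -0.03 over all genes, and 19 genes were called lower and none higher (14.4% of all genes called lower). Uchl1 differed most (-3.26 ± 0.26, adjusted p = 0.000623, 9.55-fold), followed by Elavl4 (-2.51 ± 0.37), Nefl (-2.34 ± 0.22), Tubb3 (-2.33 ± 0.17) and Elavl3 (-2.19 ± 0.20). Sox10 was among those called (-1.22 ± 0.15, adjusted p = 0.00306), and S100b had the opposite sign (0.39 ± 0.42, adjusted p = 0.559). The KO channel comes from the same arrays and slides, so it is not an independent check. There 26 of 27 genes were below 0, with a median of -1.37 against -0.04 over all genes. In wild type all 19 smooth muscle genes were also below 0, with a median of -1.45, and the part of muscle in the neuron values was not tested. In this fit the 2 tissues lay on separate slides. The 2 pools left out shared a slide, and on it the pool labelled fetal small intestine 3, which carried colon markers, lay above the pool labelled fetal colon 1, which carried small intestine markers, for 26 of 27 genes in wild type and 25 in KO, with medians of 1.02 in both. There too S100b had the opposite sign (-0.39).

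Adult colon lay below fetal colon in the same fit for 18 of the 27 genes and above it for none (22.5% of all genes called lower, 40.8% in either direction), with a median of -1.29. In the KO channel 20 were lower and 1 higher (43.9% in either direction), with a median of -1.45. The largest differences were those of Tubb3 (-2.94 ± 0.14, adjusted p = 7.73e-05, 7.66-fold), Elavl4 (-2.79 ± 0.30), Nefl (-2.72 ± 0.18), Ncam1 (-2.70 ± 0.14) and Prph (-2.59 ± 0.16). Vip (0.01 ± 0.19) and Syn2 (0.05 ± 0.12) did not pass. Nor did S100b (-1.02 ± 0.34), which had passed with the pools as labelled and the array with missing signal kept. Adult colon 3 and fetal colon 2 shared a slide, and on it 22 of 27 genes were lower in the adult pool, Tubb3 by -2.84. Of the epithelial list only 1 of 14 genes was below 0, with a median of 1.33, and its part in the neuron values was not tested.

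From fetal to adult small intestine the median over the 27 genes was -0.45. In adults 13 genes were lower and 3 higher (35.2% of all genes called in either direction, 19.4% lower). S100b (-2.10 ± 0.37, adjusted p = 0.00658, 4.29-fold), Ncam1 (-1.89 ± 0.15), Cartpt (-1.31 ± 0.26), Nefl (-1.23 ± 0.19) and Stmn2 (-1.14 ± 0.17) were lowest. The 3 that were higher were Vip (0.87 ± 0.21, adjusted p = 0.0192), Npy (0.69 ± 0.20, adjusted p = 0.0368) and Gfra3 (0.47 ± 0.14, adjusted p = 0.0461). Vip stood at 9.63 and 9.40 in the adult pools and at 8.67 and 8.62 in the fetal pools 1 and 2. Npy was well above background in 1 of 6 wild type channels of fetal small intestine, so its size there is uncertain. It passed the filter only through adult small intestine, so its higher value in adults carries no weight. Of the epithelial list 9 of 14 genes were higher in adults, with a median of 1.04, and of the fibroblast list 6 of 10 were lower and 1 higher, with a median of -0.65. Of 19 smooth muscle genes 2 were lower and 1 higher, with a median of 0.07. The part of these tissues in the neuron values was not tested. The adult and fetal small intestine pools used here shared no slide, and slide and stage cannot be told apart here. In the KO channel 8 of the 13 and all 3 of the others were called in the same direction (19.7% of all genes called lower, 36.3% in either direction).

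Within adults, small intestine lay below colon for 25 of the 27 genes, and 9 were called lower (16.1% of all genes called lower, 29.1% in either direction). Nos1 differed most, at 8.71 and 8.09 in small intestine and 9.98, 9.48 and 9.75 in colon (-1.33 ± 0.22, 2.52-fold). Uchl1 (-1.08 ± 0.17), Nefl (-0.85 ± 0.14), Stmn3 (-0.59 ± 0.13) and Prph (-0.50 ± 0.13) followed. Vip levels overlapped between the tissues, at 9.63 and 9.40 against 9.80, 9.39 and 9.69 (-0.11 ± 0.15, adjusted p = 0.647). On the slide that held adult small intestine 2 and adult colon 2, 24 of 27 genes were lower in small intestine, Nos1 by -1.37. In KO pools 4 genes were called lower, all among the 9, and Npy was called higher (0.41 ± 0.12, adjusted p = 0.0434). With 14.5% of all genes called lower and 26.6% in either direction, the KO count was near the background. Npy passed the filter only through adult small intestine, so its higher value there carries no weight. In KO adult colon it was well above background in 4 of 6 channels. In the same fit, 17 of 19 smooth muscle genes were lower in wild type small intestine, with a median of -0.98.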

How the data were processed

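Two-colour arrays of KO against wild type pools were scanned by the authors and extracted with Agilent Feature Extraction 9.5.3, per the submitters' processing notes. The deposited mean, background and processed signals are intensities on a linear scale, per the file headers, and the deposited log ratio is log10 of red over green. The deposited series table holds log2 ratios, and between 48.6% and 72.7% of each array's entries are exactly 0. It correlated at 0.586 to 0.945 across probes with the ratios computed here, so its sign runs the same way, while its filter is not given in the sources used here. Sequences came from RefSeq tables of GRCm38.p6, not from the mm8 coordinates that the file headers name.

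Mean signals were background-corrected (normexp, offset 50) and normalised within arrays by loess in limma 3.58.1 (R 4.3.3), with control spots at weight 0 and outlier spots left out. Signs were turned to KO over wild type and both dye orders averaged to 1 replicate. Wild type levels were log2 intensities after loess and Aquantile scaling. The filter on dim probes asked for a signal well above background in every array of some group, in the channel of 1 genotype, and left 24908 of 41174 probes, and 39.8% to 71.6% of probes were well above background per channel. The number of arrays limits the precision. Contrasts of KO effects and of wild type levels came from limma fits that held each group's mean (9 replicates, 5 residual degrees of freedom). Two-sided p-values were adjusted by Benjamini-Hochberg across the 17084 genes, and 0.05 was the threshold. Names came from RefSeq accessions (23374 probes), symbols (6733), older symbols (2919) or the file (8148). The adult colon KO contrast was tested on simulated ratios, with shifts larger than the KO effects of the neuron and glia genes called here. The other steps were not simulated.

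Genes and lists were chosen with earlier results of these data known. Values are given for genes past the threshold in a KO contrast, for all glial genes, for up to 5 genes each way per level contrast, for up to 3 genes each way of other lists, and for Spdef. The value of 1 gene of another list is not reported here. Pools were not paired by replicate number. Deviations from the group means correlated at -0.0739 to 0.159 across genes for equal numbers and at -0.159 to 0.159 for other numbers. The labels call pools separate, and p-values measure the spread between pools of littermates. Fetal colon titles also contain the word adult, and the stage was taken from the other labels. The fits without 1 array of adult colon pair 1 were chosen after seeing the data, as was the KO channel without the conflicting pools; other alternatives are the processed signals, median centring, other scaling, no filter, the mean of kept probes, slide or replicate number as a block, all pairs separate, the KO channel, each replicate left out in turn and the series table.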

Additional observations from a re-analysis of the deposited data

Results flagged for a closer look

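Vip was the 1 gene of the set whose KO effect differed between adult and fetal pools by the test of that difference, by -0.348 on the log2 scale. Adult pairs lay between -0.44 and -0.25 and fetal pairs between -0.10 and 0.08. The call was close to the threshold. It was lost without the conflicting fetal pools, without the array with missing signal and in most fits that left out 1 replicate.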

How the results depend on the processing

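In adult colon, 10 genes were called, and 8 to 11 in the fits not named next. The count was 0 with median centring, 4 with the replicate block and 4 with the deposited series table, and 3 to 10 when 1 replicate was left out. The average over groups gave 4 calls, against 1 with processed signals or slide as a block, 0 with median centring, the replicate block or without the conflicting pools, 2 with the series table or without 1 array of adult colon pair 1, 0 without both, and 0 to 2 leaving out 1 replicate. Adult minus fetal KO effects gave 1 call, 0 with processed signals, median centring, slide as a block, the series table, or without the conflicting pools, the array or both, 4 with every labelled pair separate, and 0 to 2 leaving out 1 replicate.

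Wild type calls, adult minus fetal, were 1 in each tissue. In small intestine they were 8 with processed signals, 2 with the mean of probes or slide as a block, 0 with the replicate block or without the conflicting pools, 4 with every pair separate or without the array, 16 without both (11 in the KO channel), and 0 to 3 leaving out 1 replicate. In colon they were 3 with processed signals or without the array, 0 with channels scaled to their median, 2 with slide as a block or every pair separate, 13 without the pools (16 in the KO channel), 18 without both (21 in the KO channel), and 0 to 2 leaving out 1 replicate. Adult small intestine minus adult colon went from 0 to 1 without the pools and 9 without both (5 in the KO channel), and fetal small intestine minus fetal colon from 0 to 6 without the pools (8 in the KO channel) and 19 without both (19 in the KO channel). The share of all genes called is not given for every one of these fits, and the causes were not tested.

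Among genes called in either of the fits compared, signs turned for fetal small intestine minus fetal colon without the pools in Nefl (-2.33, KO channel -2.44), and without both in Nefl (-2.34, KO channel -2.44), Nos1 (-1.65 and -1.75), Stmn2 (-1.54 and -1.65), Ncam1 (-1.23 and -1.66) and Hand2 (-1.02 and -1.11), and without both for adult small intestine minus adult colon in Ncam1 (-0.43). Genes below 0 went from 17 of 27 to 26 between the fetal tissues, without the pools and without both, and from 22 to 25 between the adult tissues without both. The replicate numbers did not pair the pools by the check of deviations. With 9 replicates and small folds, calls near the threshold depend on single pools. Signal near background limits Npy, Nefm, Gfra1, Elavl2, Elavl3, Gap43, Nefl, L1cam and Dbh in some groups, and the 6 genes not tested.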
